A study of Mus musculus with 6 samples.

Results

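The small leucine-rich proteoglycans are secreted proteins of the extracellular matrix, built from repeats rich in leucine, that bind collagen fibrils and set their diameter and spacing. Several of them carry chains of chondroitin, dermatan or keratan sulfate, and several also bind growth factors of the TGF-β family and so hold them in the matrix. In the heart they are made mainly by fibroblasts and are best known from scar tissue and valves. The 10 genes described here, *Dcn*, *Lum*, *Bgn*, *Fmod*, *Ogn*, *Prelp*, *Aspn*, *Podn*, *Epyc* and *Omd*, were taken by name from the 50600 genes of the count table, and all 10 were in it.

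The cells were the cardiac side population (SP), which are heart cells that extrude a Hoechst dye, sorted after cardiomyocytes and erythrocytes had been depleted. Libraries came from wild-type mice (wt, strain C57BL/6NRj, 3 libraries) and from mice labelled as lacking Flt3 ligand (flt3L-/-, strain C57BL/6Flt3Ltml/mx on a C57BL/6N background, 3 libraries), all 8 to 12 weeks old and otherwise untreated. A library was made from the hearts of 4 mice together, and 1 wt and 1 flt3L-/- sort were made on each of 3 dates, numbered here as pairs 1 and 2 (August 2016) and pair 3 (August 2017). A pool is 1 replicate, the animals in it cannot be told apart, and within a pair everything done on that day is shared.

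Libraries held 24370913 to 31145519 counts on genes, and levels are given as CPM, the counts per 1000000 counts of a library, scaled with edgeR's TMM factors. The limit of detection was set at 3 counts, or 0.109 to 0.127 CPM, which covers counting error only. Expression of *Flt3l* itself was not lower in the flt3L-/- libraries (13.6, 12.4 and 14.4 CPM in pairs 1, 2 and 3) than in wt (8.67, 10.8 and 12.1 CPM; adjusted p = 0.973 in edgeR), so its reads give no check of the genotype label. The labels do not say which part of the gene the allele removes, and the study's own measurement of the secreted protein was not analysed here, so flt3L-/- means the libraries labelled so. Genes that mark the SP were present in every library, with *Abcg2*, the transporter that exports the dye, at 147 to 274 CPM and *Ly6a*, which encodes Sca1, at 523 to 1791 CPM. The libraries differed in the levels of cell type markers. The 12 fibroblast markers summed to 6552, 6221 and 3334 CPM in the wt libraries of pairs 1, 2 and 3 and to 3631, 5049 and 1150.0 CPM in the flt3L-/- libraries. Without the 3 collagens among them, the sums were 2085, 1795 and 1317 CPM in wt and 1158, 1963 and 563 CPM in flt3L-/-. In pair 2 the sum without collagens was thus higher in flt3L-/-. The 8 leukocyte markers summed to 972 CPM in the wt library of pair 3 and to 117 to 419.9 CPM in the other 5 libraries. The flt3L-/- library of pair 3 thus stood apart by its low fibroblast sum and the wt library of pair 3 by its high leukocyte sum. Of the 6 libraries, the flt3L-/- library of pair 3 also had the lowest sums of mural cell (276 CPM) and leukocyte markers (117 CPM). Its sum of endothelial markers was the highest (14219.6 CPM). Results are therefore also given without each pair. In bulk RNA, fewer cells of a type and less RNA per cell cannot be told apart.

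Of the 10 genes, 8 lie in 3 short stretches of the genome beside other genes of the family, with positions on GRCm38. *Dcn* (chr10:97479609-97518143, plus strand), *Lum* (chr10:97565128-97572703, plus strand) and *Epyc* (chr10:97644068-97682454, plus strand) share 203 kb of chromosome 10 with *Kera*. *Aspn* (chr13:49544443-49567565, plus strand), *Omd* (chr13:49582462-49592822, plus strand) and *Ogn* (chr13:49608046-49624501, plus strand) follow *Ecm2* within 120 kb of chromosome 13, all inside the span of *Cenpp*, which is transcribed from the opposite strand. *Prelp* (chr1:133910304-133921414, minus strand) and *Fmod* (chr1:134037254-134048277, plus strand) share 151 kb of chromosome 1 with *Optc*. *Bgn* (chrX:73483602-73495933, plus strand) and *Podn* (chr4:108014791-108096445, minus strand) lie alone.

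Promoter windows of 250 bases before and 50 bases after the transcript start were available for 8 of the 10 genes from RefSeq (GRCm38.p6), and *Dcn* and *Lum* had no entry. The windows below are those of *Bgn* and *Epyc*, the 2 genes with the smallest p-values between the genotypes, and of the 3 neighbours on chromosome 13. Capitals mark matches on either strand to the TATA box, searched for with the letters TATAAA, to the GC box, for which GGGCGG was used, to the box named for its letters CCAAT, or to the AP-1 site, with the letters TGACTCA, and all sequences are written 5′ to 3′ on the strand of the gene.
*Bgn* (chrX:73483351-73483650, plus strand): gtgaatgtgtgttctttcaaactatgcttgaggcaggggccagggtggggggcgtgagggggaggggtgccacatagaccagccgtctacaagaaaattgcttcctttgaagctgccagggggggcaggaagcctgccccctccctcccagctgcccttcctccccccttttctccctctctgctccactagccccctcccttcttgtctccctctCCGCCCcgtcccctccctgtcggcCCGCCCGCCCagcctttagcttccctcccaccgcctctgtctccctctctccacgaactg
*Epyc* (chr10:97643818-97644117, plus strand): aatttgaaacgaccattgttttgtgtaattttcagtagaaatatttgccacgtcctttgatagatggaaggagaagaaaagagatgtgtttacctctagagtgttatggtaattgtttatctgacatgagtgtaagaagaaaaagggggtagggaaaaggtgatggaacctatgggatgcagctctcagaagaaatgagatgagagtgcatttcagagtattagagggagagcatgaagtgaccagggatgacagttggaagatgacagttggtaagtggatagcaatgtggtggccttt
*Aspn* (chr13:49544193-49544492, plus strand): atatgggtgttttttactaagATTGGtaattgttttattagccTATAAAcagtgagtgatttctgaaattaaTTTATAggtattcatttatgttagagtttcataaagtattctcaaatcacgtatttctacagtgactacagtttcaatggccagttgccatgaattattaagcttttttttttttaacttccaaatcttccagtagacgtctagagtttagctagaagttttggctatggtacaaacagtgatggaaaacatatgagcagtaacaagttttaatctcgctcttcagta
*Omd* (chr13:49582212-49582511, plus strand): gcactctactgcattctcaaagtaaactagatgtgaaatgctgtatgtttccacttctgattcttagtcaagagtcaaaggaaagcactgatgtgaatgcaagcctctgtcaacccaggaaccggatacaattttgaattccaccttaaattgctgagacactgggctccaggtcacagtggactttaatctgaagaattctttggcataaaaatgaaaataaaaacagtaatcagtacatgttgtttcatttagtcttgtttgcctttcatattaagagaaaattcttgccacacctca
*Ogn* (chr13:49607765-49608064, plus strand): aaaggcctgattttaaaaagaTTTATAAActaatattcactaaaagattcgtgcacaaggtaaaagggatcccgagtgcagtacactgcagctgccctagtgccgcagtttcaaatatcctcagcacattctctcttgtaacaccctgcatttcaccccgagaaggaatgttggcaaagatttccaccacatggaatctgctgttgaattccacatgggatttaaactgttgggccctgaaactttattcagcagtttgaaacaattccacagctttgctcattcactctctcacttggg

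The windows differed in base composition and in the words they held. The window of *Bgn* had 63.7% G and C and 3 matches to the GC box, of which 2 overlap, close to the start. Those of *Epyc*, *Aspn*, *Omd* and *Ogn* had 40.3%, 31.0%, 37.7% and 42.3% G and C, against a median of 52.7% over the 32851 windows of the table. A second start of *Epyc* had a window (chr10:97646853-97647152, plus strand) with 32.3% G and C, which is not printed. *Aspn* and *Ogn* each had 2 matches to the TATA box, all far before the start, and those of *Ogn* overlap, while *Aspn* also had 1 to the CCAAT box. No match to any of these words was found in the windows of *Epyc* and *Omd*, nor any to the AP-1 site in the windows of the 8 genes. Over all windows, the TATA box word was present in 13.6%, the GC box word in 35.7%, the CCAAT box word in 37.4% and the AP-1 word in 5.20%. The most different window was that of the first *Podn* start, with 77.0% G and C and 41 CG dinucleotides, where the median window had 7.

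Levels were compared between genes per length, as TPM, the transcripts per 1000000 transcripts of the protein-coding genes. The length was the union of all annotated exons of a gene, 5838 bases for *Dcn*, 2448 for *Lum* and 6099 for *Bgn*. It can exceed the length of the transcripts present, which was not measured, so levels, ranks and shares in TPM depend on this choice. *Dcn* encodes decorin, which binds collagen I and TGF-β, and was the highest of the family with a mean of 3495 TPM (range 1372 to 6718), rank 26 among all protein-coding genes. *Lum* (lumican) followed with 1574 TPM, *Prelp* with 685 TPM and *Bgn* (biglycan) with 268 TPM. These 4 genes made up 92.8% to 96.6% of the summed TPM of the family in each library. *Ogn*, *Aspn* and *Fmod* formed a middle tier with means of 137, 95.1 and 55.8 TPM, and *Epyc*, *Podn* and *Omd* were lowest with 9.11, 7.25 and 6.99 TPM.

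The order held better than the levels. Of the 9 steps between neighbours in it, 6 had the same direction in 6 of 6 libraries, while 8 had overlapping ranges, the exception being *Fmod* above *Epyc*. *Aspn* exceeded *Fmod* in 5 libraries, *Epyc* exceeded *Podn* in 4 and *Podn* exceeded *Omd* in 3, so these neighbours did not differ beyond their spread. In TPM, *Lum* was below *Dcn* by a factor of 2.09 to 2.59 in each library. Without division by length, the means over the 6 libraries were 1045 CPM for *Lum* and 5536 CPM for *Dcn*. The share of *Dcn* in the family's TPM was 55.0, 53.7 and 58.3% in wt pairs 1, 2 and 3 and 54.1, 55.0 and 55.9% in flt3L-/-, although the family's sum itself went from 2456 to 12205 TPM.

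**Figure D1:**
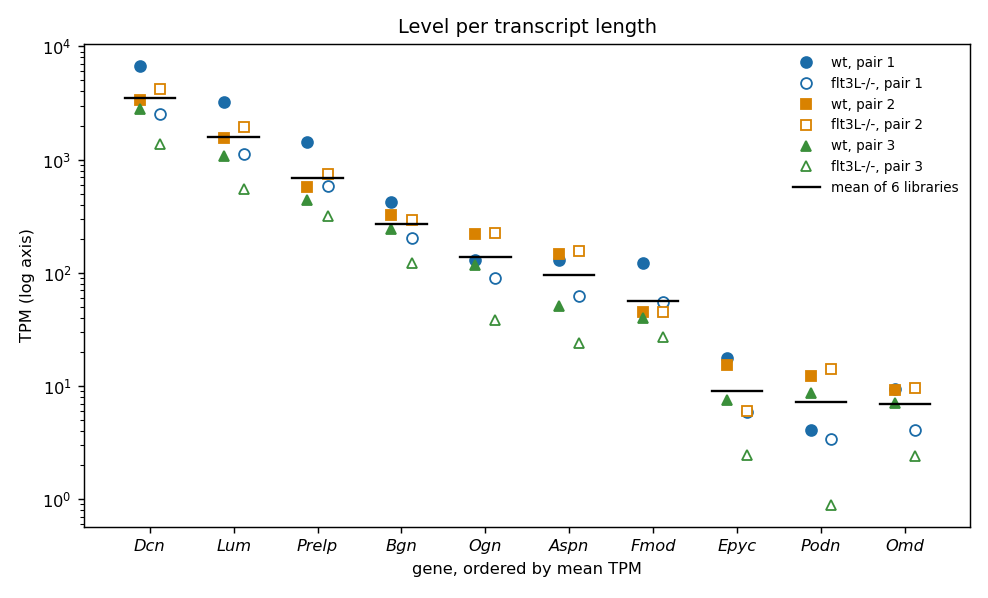
TPM of each gene (log axis) in the 3 wt libraries (filled symbols) and the 3 flt3L-/- libraries (open symbols), with the mean of the 6 libraries as a bar and the genes ordered by it. Means go from 3495 TPM for *Dcn* to 6.99 TPM for *Omd*, and only between *Fmod* and *Epyc* do the ranges of neighbours not overlap.

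To ask whether the flt3L-/- genotype goes with a different expression of the family, flt3L-/- and wt libraries were compared in edgeR's quasi-likelihood model, in which the date of the sort was a further term, and p-values were adjusted over the 13475 genes tested. The 10 genes all passed the filter on low counts. Each had a fitted log2 fold change below 0 in flt3L-/-, as had 50.0% of all genes tested, and the values went from −1.42 (*Epyc*) to −0.36 (*Prelp*) with a median of −0.63, against a median of −0.00027 over all genes. None of the 10 had an adjusted p under 0.05 in edgeR (smallest adjusted p = 0.973; 0% of all genes passed), and 2 had an unadjusted p under 0.05 (*Epyc* and *Bgn*, both lower), where 3.59% of all genes had such a p, 2.49% with a lower and 1.11% with a higher level. With DESeq2 in place of edgeR, *Epyc* was called (adjusted p = 0.0313) and the other 9 were not, beside 0.156% of all genes called by that tool. The study itself listed genes under this adjusted threshold, from an earlier edgeR release with the date as covariate. Those calls were not reproduced by the edgeR fit used here, and the cause was not tested.

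The pairs did not show the same difference. In pair 1 each of the 10 genes was lower in flt3L-/- (45.9% of all genes were), with a median difference of −1.13 on the log2 scale, and in pair 3 each was again lower (48.8% of all genes), with a median of −0.89. In pair 2 the median was 0.14, and only *Epyc* and *Bgn* were lower (49.6% of all genes). The sequence lower, higher, lower over pairs 1, 2 and 3 was thus found in 8 of the 10 genes and in 13.2% of all genes, and a lower value in 3 of 3 pairs in 2 genes and in 11.5% of all genes. Without pair 2, 8 of the 10 genes had an unadjusted p under 0.05, all but *Prelp* and *Podn*, beside 7.47% of all genes in that fit, and the median log2 fold change was −1.06. Without pair 1 or without pair 3 it was *Epyc* alone that had an unadjusted p under 0.05, beside 2.57% and 1.87% of all genes, and the median was −0.42 and −0.50.

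**Figure D2:**
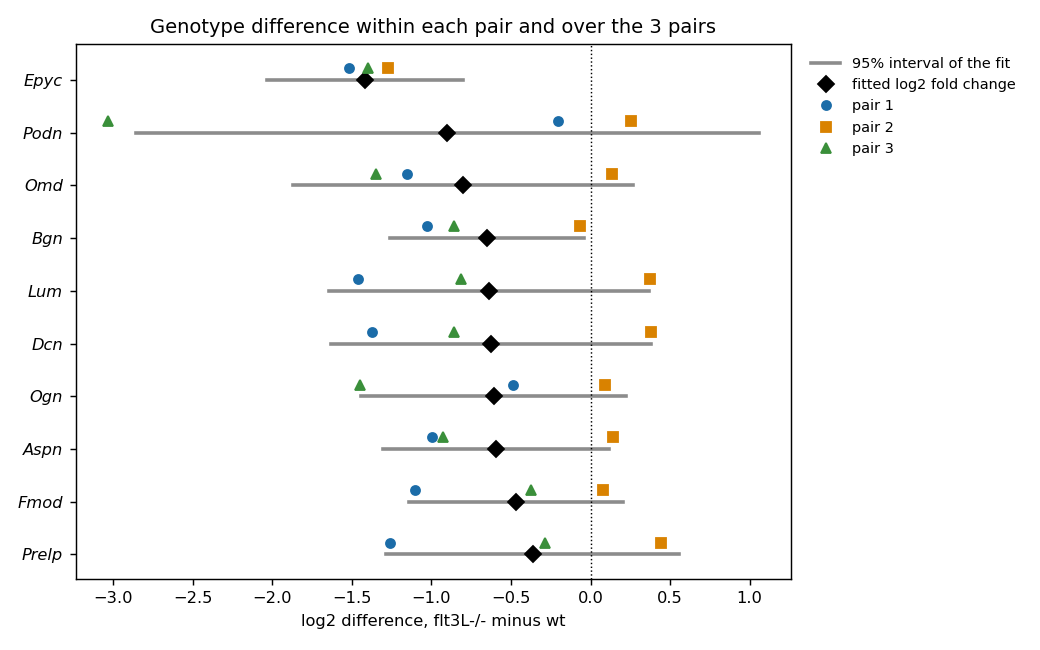
Log2 difference between flt3L-/- and wt for each gene within pairs 1, 2 and 3 (coloured symbols, prior count of 2), with the fitted log2 fold change (diamond) and its 95% interval (grey line). The intervals of *Epyc* and *Bgn* lie below 0, those of the other 8 genes include 0, and pair 2 lies above 0 for these 8.

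Decorin, biglycan and asporin form the first class of the family. *Dcn* (ENSMUSG00000019929) had 10551, 5127 and 4380.4 CPM in the wt libraries of pairs 1, 2 and 3 and 4081, 6666 and 2413 CPM in the flt3L-/- libraries. Its highest value was that of wt pair 1 and the groups overlapped. The means were 6686 ± 3368 CPM (SD, n = 3) and 4387 ± 2143 CPM (SD, n = 3), with a log2 fold change of −0.62 (standard error 0.39, 95% interval −1.63 to 0.38), so the data allowed anything from a clear decrease to a small increase. It became −0.24 when pair 1 was left out, −1.14 for pair 2 and −0.50 for pair 3.

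*Bgn* (ENSMUSG00000031375) encodes biglycan, a close relative of decorin that also signals through Toll-like receptors when it is released from the matrix. It had 695, 512 and 403 CPM in wt and 341, 489.6 and 222 CPM in flt3L-/-, in the same order of pairs. The flt3L-/- library was the lower of each pair, but in pair 2 by only 0.064 on the log2 scale, and the groups overlapped. Its log2 fold change was −0.65 (standard error 0.23, 95% interval −1.26 to −0.043, unadjusted p = 0.0403 and adjusted p = 0.973 in edgeR's quasi-likelihood test). With pair 1, 2 or 3 left out, the unadjusted p of *Bgn* in edgeR was 0.166, 0.00533 and 0.168. *Aspn* (ENSMUSG00000021388) encodes asporin, which has a run of aspartates, lacks sugar chains of this kind and binds TGF-β. Its levels were 81.8, 90.5 and 32.3 CPM in wt and 41.0, 100.1 and 17.0 CPM in flt3L-/-. Both libraries of pair 2 lay above the other 4 and both of pair 3 below them, and the groups overlapped. Its log2 fold change was −0.59 (standard error 0.27), and −0.39, −0.98 and −0.42 with pair 1, 2 or 3 left out.

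Lumican, fibromodulin, PRELP and osteomodulin, whose typical chains are keratan sulfate or which carry few chains, form the next class. *Lum* (ENSMUSG00000036446), whose product keeps collagen fibrils thin and evenly spaced, had 2116, 990.0 and 709 CPM in wt and 767, 1283 and 404 CPM in flt3L-/-. It followed *Dcn* closely, with a log2 fold change of −0.64 (standard error 0.39) made up of −1.46, 0.37 and −0.81 in pairs 1, 2 and 3, and leaving out each in turn gave −0.22, −1.16 and −0.55. *Prelp* (ENSMUSG00000041577), whose product links basement membranes to the collagen beneath, had 1398, 544 and 426 CPM in wt and 585, 742 and 349 CPM in flt3L-/-. Its value in wt pair 1 was far above the other 5, and its log2 fold change of −0.36 (standard error 0.35) was 0.078 without pair 1, the opposite sign, −0.79 without pair 2 and −0.41 without pair 3. The antisense gene Gm15851 shares 9.68% of the exon bases of *Prelp*, and the libraries did not keep the strand.

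*Fmod* (ENSMUSG00000041559) encodes fibromodulin, which guides the crosslinking of collagen. Its levels were 109, 38.6 and 35.2 CPM in wt and 50.7, 40.8 and 27.2 CPM in flt3L-/-, so that wt pair 1 alone was high and the groups overlapped among the other 5 libraries. The log2 fold change was −0.47 (standard error 0.26), and −0.15, −0.76 and −0.52 with pair 1, 2 or 3 left out, so most of it came with pair 1. *Omd* (ENSMUSG00000048368) encodes osteomodulin, a protein of mineralised tissue, and was rare, with 5.75, 5.39 and 4.25 CPM in wt and 2.55, 5.94 and 1.62 CPM in flt3L-/-, which were 41 to 148 counts. Its wt values were close together (SD 0.787 CPM, n = 3), its flt3L-/- values were not (SD 2.27 CPM, n = 3), and the groups overlapped, with a log2 fold change of −0.80 (standard error 0.41) that was −0.60, −1.30 and −0.51 with pair 1, 2 or 3 left out.

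*Epyc* and *Ogn* form the third class, and their products are known from growth plate cartilage and from bone and cornea. *Epyc* (ENSMUSG00000019936), which encodes epiphycan, had 12.1, 10.2 and 5.14 CPM in wt and 4.19, 4.16 and 1.90 CPM in flt3L-/-, which were 48 to 312 counts. Each wt value was above each flt3L-/- value, as in 2.92% of all genes (3.53% were separated in the opposite direction), and it was the only 1 of the 10 genes whose groups did not overlap. The wt mean was 9.15 ± 3.60 CPM and the flt3L-/- mean 3.42 ± 1.31 CPM (both SD, n = 3), a level 2.67-fold lower in the fit. The log2 fold change of −1.42 (standard error 0.24, 95% interval −2.03 to −0.80) was made up of −1.52, −1.27 and −1.40 in pairs 1, 2 and 3, an SD of 0.12 where that of the other genes was 0.51 to 1.78. Its unadjusted p of 0.00212 with edgeR was the 9th smallest of all genes, with an adjusted p of 0.973. Leaving out 1 pair gave −1.36, −1.51 and −1.41.

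A larger part of *Epyc* overlaps another gene than of any other of the 10. The last part of *Epyc* overlaps the long noncoding RNA Gm10754 (chr10:97681414-97967090, minus strand), and 40.6% of the exon bases of *Epyc* lie in exons of it. As strand was not kept, reads there cannot be assigned to 1 of the 2. Gm10754 had 44, 33 and 15 counts in the wt libraries of pairs 1, 2 and 3 and 7, 13 and 3 counts in the flt3L-/- libraries. *Epyc* had 312, 262 and 138 counts in the same wt libraries and 115, 98 and 48 counts in the flt3L-/- libraries. Gm10754 was lower in the flt3L-/- library of each pair as well, but reads in the shared exon bases may be in both counts. How many of the reads of *Epyc* came from Gm10754 was not tested. Apart from this overlap, that of *Prelp* with Gm15851 and 3.12% of the positions of *Omd*, no run of 81 bases, the length of a read, in a transcript of the 10 genes occurs in a transcript of another gene.

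*Ogn* (ENSMUSG00000021390) encodes osteoglycin, also named mimecan, which is released from the matrix and circulates. It had 90.0, 147 and 80.8 CPM in wt and 64.3, 157 and 29.6 CPM in flt3L-/-. Both libraries of pair 2 were above the other 4 and the groups overlapped, and the log2 fold change was −0.61 (standard error 0.32), made up of −0.48, 0.091 and −1.45 in the pairs. With pair 1, 2 or 3 left out it was −0.68, −0.99 and −0.20. *Podn* (ENSMUSG00000028600) encodes podocan, of a further class, which was first described in the kidney and restrains smooth muscle growth. It had 4.67, 13.7 and 9.94 CPM in wt and 4.04, 16.4 and 1.15 CPM in flt3L-/-, the widest spread of the family (14.3-fold between the lowest and the highest library). Its log2 fold change of −0.90 (standard error 0.75) rested on pair 3 and was 0.033 without it, −1.35 without pair 1 and −1.65 without pair 2.

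**Figure D3:**
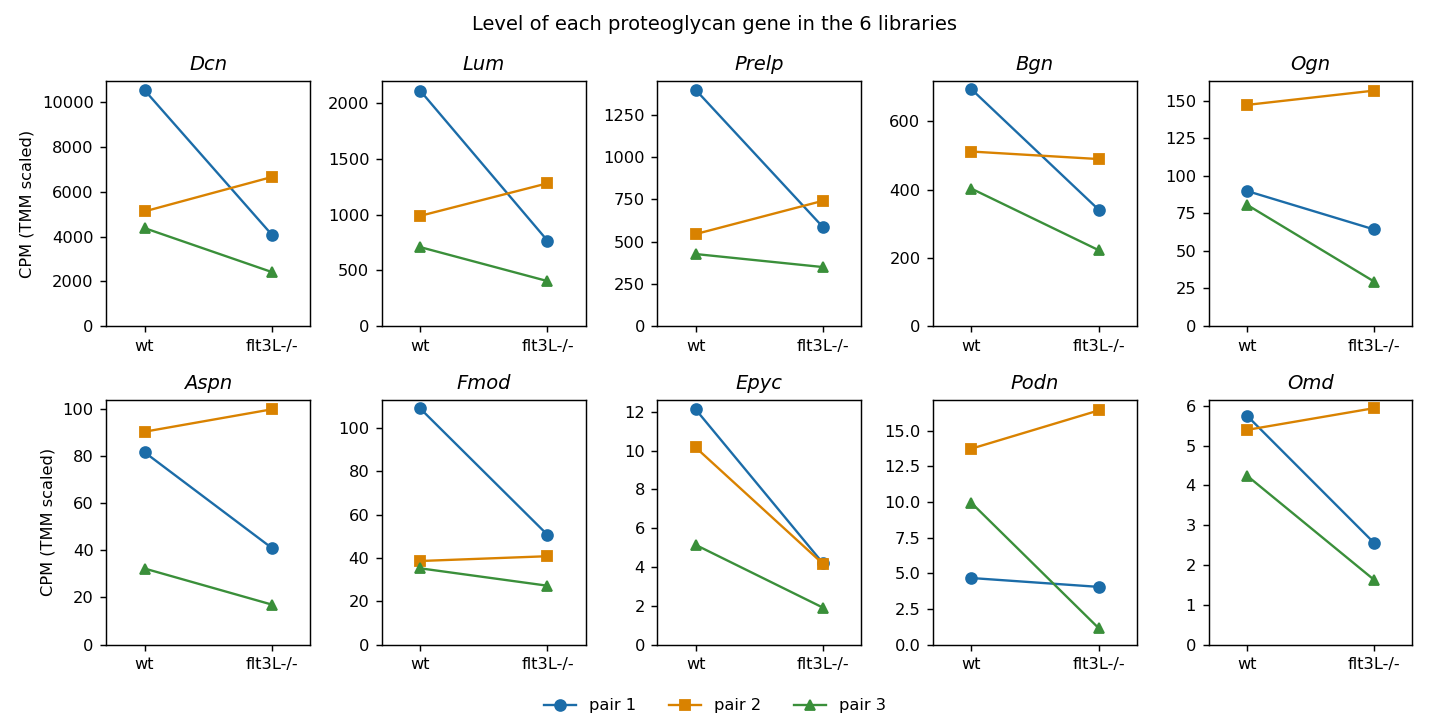
CPM of each gene in the wt and the flt3L-/- library of each pair, with a line joining the libraries of 1 date. *Epyc* is lower in flt3L-/- along each line, *Bgn* is nearly level in pair 2, and the other 8 genes have a higher flt3L-/- value in pair 2 only.

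Over the 6 libraries the genes shared the place of their lowest value and divided by that of their highest. The flt3L-/- library of pair 3 was the lowest for each of the 10 genes, as for 25.2% of all genes tested. The highest library was wt pair 1 for 6 genes (*Dcn*, *Lum*, *Bgn*, *Prelp*, *Fmod* and *Epyc*; 19.3% of all genes) and flt3L-/- pair 2 for the other 4 (*Omd*, *Ogn*, *Aspn* and *Podn*; 12.8% of all genes). Likeness was measured as the root-mean-square distance between the log2 CPM of 2 genes, each centred on its own mean over the 6 libraries. The nearest pair was *Dcn* with *Lum* (0.11), followed by *Dcn* with *Bgn* (0.21) and *Fmod* with *Prelp* (0.21), and the farthest was *Fmod* with *Podn* (1.38). Among the neighbours on chromosome 13, *Ogn* was at 0.31 from *Omd* and 0.35 from *Aspn*. *Epyc*, a neighbour of *Dcn* and *Lum*, was at 0.51 from each. *Kera*, which lies between *Lum* and *Epyc*, had 0.816 CPM in wt pair 1, was listed at 0 in 3 libraries and was not tested.

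Of all tested genes outside the family, those nearest to *Dcn* were *Aldh1a1* (0.071), which encodes an enzyme of retinoic acid synthesis, *Cpt1c* (0.078), *Gabra3* (0.079), *Fap* (0.086), a protease of activated fibroblasts, and *Naalad2* (0.090). *Lum* was the 13th nearest to *Dcn*, *Bgn* the 96th, *Prelp* the 118th and *Podn* the 12597th. The distances describe 6 libraries that share dates and cell makeup, and they carry no test.

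**Figure D4:**
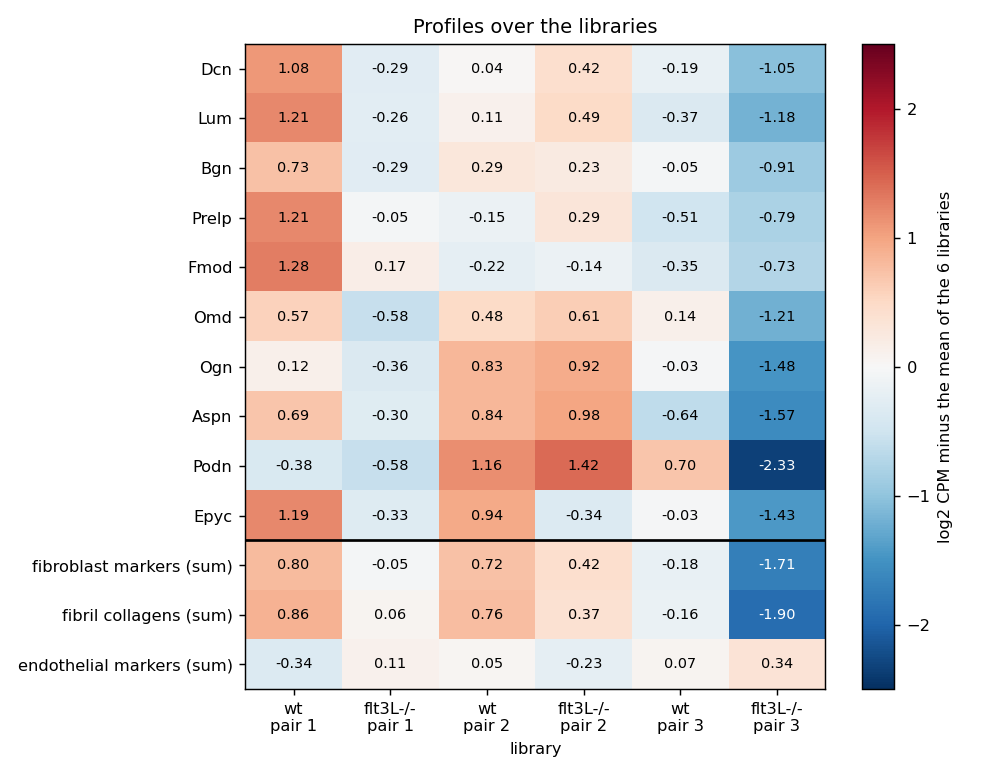
Log2 CPM of each gene minus its mean over the 6 libraries, by library, with the same for the summed CPM of 12 fibroblast markers, 14 collagens and 10 endothelial markers below the line. Each gene is lowest in the flt3L-/- library of pair 3, as are the fibroblast and collagen sums, while the endothelial sum is highest there. The fibroblast and collagen sums share *Col1a1*, *Col1a2* and *Col3a1* and are not separate observations.

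The sorting date was tested in the same fit, since levels differed between days within a genotype. None of the 10 genes had an adjusted p under 0.05 for the date in edgeR (0% of all genes), and 4 had an unadjusted p under 0.05 (8.28% of all genes), namely *Aspn* (unadjusted p = 0.00592), *Epyc* (unadjusted p = 0.0215), *Fmod* (unadjusted p = 0.0222) and *Ogn* (unadjusted p = 0.0234). Between the first and the third date, the fitted log2 difference was below 0 for 9 of the 10 genes (47.1% of all genes), from −1.31 for *Aspn* and *Lum* to −0.52 for *Omd*, and it was 0.0091 for *Podn*. Between the first and the second date it was 1.86 for *Podn*, 1.04 for *Ogn* and 0.75 for *Aspn* but −0.92 for *Fmod*. DESeq2 called *Aspn* (adjusted p = 0.000263), *Ogn* (adjusted p = 0.0196) and *Fmod* (adjusted p = 0.0423) for the date, and 2.89% of all genes. A date is also 1 pair of pools of 4 mice each, and day, handling and animals cannot be told apart.

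Levels of cell type markers were set beside these values. The 12 fibroblast markers, which hold no gene of the family but share 3 genes with the collagens below and *Mmp2* with the proteases, all had a fitted log2 fold change below 0 in flt3L-/- (median −0.70), with 0 called and 3 at an unadjusted p under 0.05 in edgeR. These 3 were the shared collagens (*Col1a1*, *Col1a2* and *Col3a1*), and 0 of the 9 other markers had such a p. The medians of all 12 were −0.76, 0.041 and −1.67 in pairs 1, 2 and 3, and the sum of all 12 was 3334 to 6552 CPM in wt and 1150.0 to 5049 CPM in flt3L-/-, with none at 0 in any library. Among them, *Col3a1* had a wt mean of 1917 ± 807 CPM and a flt3L-/- mean of 1092 ± 703 CPM (both SD, n = 3). *Pdgfra*, which encodes a receptor, had a log2 fold change of −0.84 (chosen after its value was seen). The ratio of the family's summed CPM to that of the fibroblast markers was 2.30, 1.20 and 1.83 in wt pairs 1, 2 and 3 and 1.64, 1.88 and 3.01 in flt3L-/-, lower in flt3L-/- in pair 1 and higher in pairs 2 and 3. Without the 3 collagens among the markers the ratios were 7.23, 4.17 and 4.62 in wt and 5.13, 4.84 and 6.15 in flt3L-/-.

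Markers of other cells of the heart were counted in the same way. The 10 mural cell markers had a median log2 fold change of −0.46 and a sum of 449 to 915 CPM in wt and 276 to 568 CPM in flt3L-/-, with log2 fold changes of −0.63 for *Pdgfrb*, −0.048 for *Rgs5* and −0.76 for *Myh11*. The 10 endothelial markers, the most abundant of the lists, had a median of 0.23, with sums of 8892 to 11851 CPM in wt and 9602 to 14219.6 CPM in flt3L-/-, and *Kdr* (−0.17) and *Fabp4* (0.37) were its most abundant genes. Of the 8 leukocyte markers, 7 were tested, with 6 below 0, a median of −0.48, medians of 0.88, 0.23 and −2.98 in pairs 1, 2 and 3 and 0 called, and *Ptprc* (−0.90), *Itgam* (−0.87) and *Nkg7* (−1.43) among them. No mural or endothelial marker was at 0 in any library, and none was called. The part of the cell makeup in the levels of the proteoglycans was not tested.

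Collagens, to which the proteins of the family bind, had the lowest median of the lists. Of 14 genes of fibrils and of fibril-linked collagens, 12 were tested, and all 12 had a log2 fold change below 0 (median −0.94). In edgeR 0 were called and 7 had an unadjusted p under 0.05, and 8 were lower in 3 of 3 pairs. *Col3a1* (log2 fold change −1.02, unadjusted p = 0.0141) and *Col1a2* (−1.01, unadjusted p = 0.0183) were the most abundant. In pair 2, 8 of the 12 collagens but 2 of the 10 proteoglycan genes were lower. The summed CPM of the family divided by that of the 14 collagens was 2.34, 1.24 and 1.92 in wt pairs 1, 2 and 3 and 1.61, 2.08 and 3.65 in flt3L-/-, so no direction held over the pairs.

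The enzymes that build the sugar chains had medians nearer to 0. Of 22 enzymes of chondroitin and dermatan sulfate, 21 were tested, with 16 below 0, 0 called and 0 at an unadjusted p under 0.05 in edgeR, and a median of −0.16. The most abundant were *Chpf* (log2 fold change −0.45), which polymerises the chain, and *Xylt2* (0.02), which attaches its first sugar, and *Chpf2* (−0.31) had the smallest p. Of 7 enzymes of keratan sulfate, 5 were tested, with a median of 0.023, 0 called and 0 at an unadjusted p under 0.05. *B4galt4* (0.36) and *B3gnt2* (0.023) were the most abundant of these, and *B3gnt7* (−1.38) had the smallest p at a mean of 0.870 CPM.

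Enzymes that process or cleave the proteins had a median of −0.48 over 13 tested of 14, with 10 below 0, 0 called and 0 at an unadjusted p under 0.05 in edgeR. *Mmp2*, a matrix metalloproteinase, had a log2 fold change of −0.65, *Pcolce*, an enhancer of procollagen processing, one of −0.61, and *Adamts5* one of −0.75. The 10 receptors had a median of −0.27, with 9 below 0, 0 called and 0 at an unadjusted p under 0.05. *Kdr* (−0.17) and *Lrp1* (−0.77), an endocytic receptor of decorin, were the most abundant and *Egfr* (−0.84) had the smallest p. Of the 8 growth factors that the family is known to bind, 7 were tested, with 4 below 0, 0 called and a median of −0.43. *Tgfb2* was the only 1 at an unadjusted p under 0.05 (−0.72, unadjusted p = 0.0484 in edgeR), and the most abundant were *Ccn2* (−0.43) and *Tgfb3* (−0.50).

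Of the 8 relatives with leucine-rich repeats that the family does not include here, 5 were tested, with 3 below 0, 0 called, 0 at an unadjusted p under 0.05 and a median of −0.29. *Ecm2*, the neighbour of *Aspn*, was the most abundant, with a wt mean of 121 ± 27.8 CPM and a flt3L-/- mean of 99.2 ± 25.5 CPM (both SD, n = 3), a log2 fold change of −0.29. *Chadl* differed by 0.17 and *Tsku*, with the smallest p of the list (unadjusted p = 0.0737 in edgeR), by −0.85. *Kera*, *Optc* and *Podnl1* did not pass the filter on low counts.

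**Figure D5:**
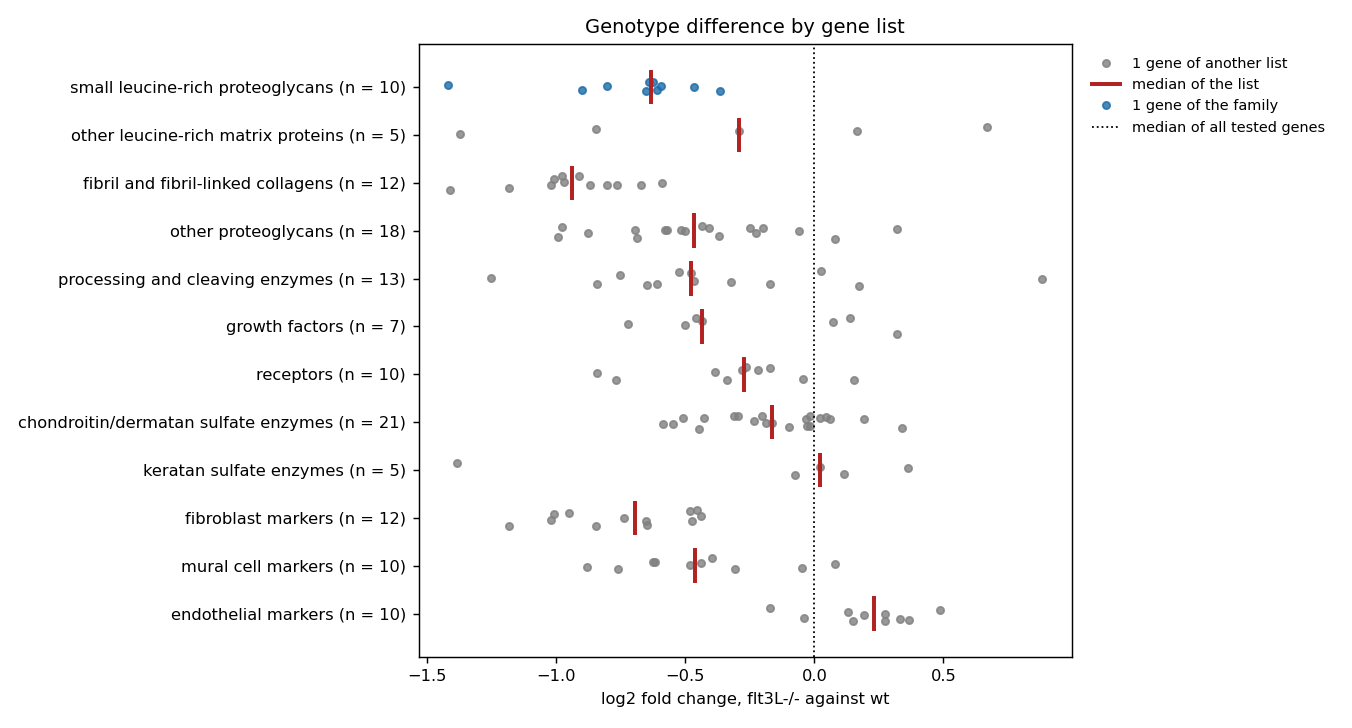
Fitted log2 fold change of each tested gene (points) in the family, in the lists of related genes and in 3 lists of cell type markers, with the median of each list (red bar) and that of all tested genes (dotted line). The family (median −0.63) lies between the collagens (−0.94) and the chain-building enzymes (−0.16 and 0.023), near the fibroblast markers (−0.70).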

How the data were processed

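Single-end, unstranded SMART-Seq v4 reads of 6 libraries, 3 wt and 3 flt3L-/-, were mapped by the authors to mm10 with STAR 2.5.2a (version also in the submitters' processing notes), with at most 10 hits per read. The deposited values are the raw counts of reads that started in an exon of each gene, made by the authors with QuasR's qCount function and Ensembl 88 annotation. A random choice among equal hits and the lack of strand make reads of overlapping genes uncertain. Totals of 24370913 to 31145519 counts set the precision of rare genes.

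Symbols, positions and exon lengths came from GENCODE M21 (GRCm38), which held 50376 of the 50600 genes. The 13475 protein-coding genes that exceeded 1 CPM in 2 or more libraries were fitted in edgeR 4.0.16 on R 4.3.3 (TMM, estimateDisp, glmQLFit and glmQLFTest with legacy = TRUE) with genotype and sorting date, and p-values were adjusted by Benjamini-Hochberg over all genes at a threshold of 0.05. Standard errors came from the log2 fold change and F. For pair differences, 2 counts were added as a prior before taking log2. TPM divided counts by the union of exons. The model was tested on simulated data. After removal of the group means, libraries of the same date correlated across genes (0.18, 0.10 and 0.12 in pairs 1, 2 and 3), where wt and flt3L-/- libraries of different dates gave −0.354 to 0.247. These correlations alone do not single out the pairs, and the pairing was taken from the sorting dates. No 2 libraries were copies (Pearson correlation of log2 CPM 0.914 to 0.976). The labels do not say whether mice of different pools were related. With the sorting date in the fit, p-values set the genotype difference against a dispersion moderated across genes. It draws on the gene's own spread over the 3 pairs of pools (2 residual degrees of freedom) and on that of other genes (2.79 prior degrees of freedom). The p-value of a gene is thus no measure of its own pair spread alone.

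The 10 genes, the lists of related genes and markers and the tests were chosen with earlier results of these data known. Named are the 10 genes, the 2 most abundant tested genes and the 1 with the smallest genotype p of each list, *Flt3l*, and the 5 genes nearest to *Dcn*, and others where the text says so or where a neighbouring or overlapping gene or a marker of the SP is described. Alternatives were DESeq2 size factors, library size only, no filter, DESeq2 1.42.0, legacy = FALSE, no block, all biotypes, and each pair left out. Mesothelial, Schwann, erythroid and cardiomyocyte markers are given with the closing observations.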

Additional observations from a re-analysis of the deposited data

How the results depend on the processing

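Under the alternatives that kept all libraries, the 10 genes kept a log2 fold change below 0, with a median of −0.67 (library size only) to −0.61 (no replicate block). Library size scaling moved the median of all genes to −0.039. DESeq2 called 21 genes between the genotypes, 15 lower and 6 higher, among them 1 of the 10 genes (*Epyc*, log2 fold change −1.42, adjusted p = 0.0313), where edgeR called 0 under every setting (484 genes at an unadjusted p under 0.05). For the date DESeq2 called 389 genes and 3 of the 10, and 9 of the 10 had an unadjusted p under 0.05, as had 11.8% of all genes. With no replicate block, 1 of the 10 had an unadjusted p under 0.05 (*Epyc*) in place of 2, and 262 genes in place of 484, and no call changed. With 1 pair left out, 1 to 8 of the 10 (8 without pair 2) had an unadjusted p under 0.05 between the genotypes (2.57%, 7.47% and 1.87% of all genes without pair 1, 2 or 3) and 2 to 7 between the dates (3, 7 and 2, beside 5.67%, 14.4% and 5.25% of all genes), and 0 to 112 genes were called for the date, the 112 without pair 2. The sign of *Prelp* reversed without pair 1 and that of *Podn* without pair 3, and their log2 fold changes with 1 pair left out were −0.79 to 0.078 and −1.65 to 0.033. Ordered by CPM in place of TPM, 8 of the 10 genes kept their place. The cause of these differences was not tested. With 3 pools per group and pair differences that spread by 0.51 to 1.78 for 9 of the 10 genes, the fit gave intervals that include both no difference and one of more than 1 on the log2 scale for all of them but *Bgn* and *Epyc*.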

Other observations

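Proteoglycans outside the family mostly had log2 fold changes below 0 in flt3L-/- as well. Of 23 genes of matrix and cell surface proteoglycans, 18 were tested, and 16 had a log2 fold change below 0 (median −0.47), 0 were called, 4 had an unadjusted p under 0.05 in edgeR and 8 were lower in 3 of 3 pairs. *Gpc1*, a glypican of the cell surface, had the smallest p of the list (unadjusted p = 0.0115 in edgeR's quasi-likelihood test), with a wt mean of 16.1 ± 3.04 CPM and a flt3L-/- mean of 8.59 ± 3.69 CPM (both SD, n = 3). The most abundant were *Sdc3* (log2 fold change −0.37), a syndecan, and *Srgn* (0.32), which encodes the granule proteoglycan serglycin and was 1 of 2 genes of the list above 0. *Sdc3* had 583, 586 and 83.0 CPM in wt pairs 1, 2 and 3 and 719.9, 166 and 104 CPM in flt3L-/-, so its value below 0 came from pair 2 (−1.82), and it was higher in flt3L-/- in pairs 1 and 3 (0.30 and 0.32).

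Markers of cells that the depletion steps remove were present in each library, and all 7 tested cardiomyocyte and all 5 erythroid markers had a log2 fold change above 0 (medians 0.40 and 0.33), of which *Tnni3* (0.40) and *Alas2* (1.06) had an unadjusted p under 0.05 in edgeR. The 8 cardiomyocyte markers summed to 129 to 187 CPM in wt and 192 to 224 CPM in flt3L-/-, without overlap, and the 5 erythroid markers to 243 to 419 and 372 to 491 CPM. The 6 mesothelial markers summed to 22.1 to 65.1 CPM in wt and 38.2 to 57.9 CPM in flt3L-/-, and the 5 Schwann cell markers to 8.72 to 31.1 and 11.8 to 23.9 CPM (medians 0.31 and 0.053), with *Sox10* listed at 0 in 4 libraries. In edgeR 0 of these genes were called.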
